A study of Mus musculus with 10 samples.

Results

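The Schlafen genes of the mouse were examined in primary microglia, the resident macrophages of the brain, as 7 named genes, Slfn1, Slfn2, Slfn3, Slfn4, Slfn5, Slfn8 and Slfn9, out of 18976 genes with a probe set of their own on the arrays. These genes were chosen by the deposited comparison of TGFb1-treated with control cells, in which the values of the family had been seen. Those values are not used here, and the family is described by its level alone. All 7 genes had a probe set of their own, and Slfn3 had 2. A further 2 probe sets were shared, 1 by Slfn8 and Slfn10 and 1 by Slfn5 and Unc45b, and are given apart.

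The series consists of 5 arrays of wild-type C57BL/6 microglia given 5 ng/ml recombinant human TGFb1 for 24 h without serum and 5 arrays of the same kind of cells given no factor. All cells were shaken off mixed glial cultures of newborn pups after 14 days. The only value used is the authors' median intensity over the arrays, a linear array brightness with 1 value per probe set. It pools TGFb1-treated and control cells, so it holds no effect of TGFb1 and no error of a level, and no test was made. Values per array were deposited under names that match no sample label, and they were not used. Probe sets differ in how strongly they respond to the same amount of RNA, and the order of levels between genes is for this reason a description of signals and not of transcript numbers. A bulk signal also does not separate the number of cells that express a gene from the amount of RNA per cell.

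Schlafen proteins share an N-terminal Schlafen domain and are known from growth arrest of lymphocytes, from the response of macrophages to interferon and from binding or cutting of transfer RNA. The long members, Slfn5, Slfn8 and Slfn9 in the mouse, also carry a helicase-like C-terminal part, whereas Slfn1 and Slfn2 are the short members and Slfn3 and Slfn4 lie between. Several family genes are induced by type I interferon in mouse macrophages. That induction is usually read out through the interferon-stimulated response element, a DNA motif bound by factors of the Irf family.

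The promoters differed between the members in this motif, and the sequences of 4 members are shown for that reason. The motif was searched as GAAANNGAAA on both strands, in windows of 300 bases that reach from 250 bases before to 50 bases after the RefSeq start of each gene in GRCm38.p6. The windows of all 7 members were found in the RefSeq table, and Slfn8 had 2 overlapping ones. The motif was present in Slfn5, Slfn8 and Slfn9, and no match was found in the windows of Slfn1, Slfn2, Slfn3 and Slfn4. Apart from the wider spacing given below, other forms of sites for Irf factors were not searched. Among all 27025 genes with such a window, 3.99% held the motif. In the list of type I interferon response genes it was held by 13 of the 24 genes with a window (54.2%). The 250 bases before the start are printed below, 5′ to 3′ on the strand of the gene, with the motif in capitals. They lie on chromosome 11 of GRCm38.p6, for Slfn5 at chr11:82951852-82952101 on the plus strand, for Slfn8 at chr11:83020811-83021060 on the minus strand and for Slfn9 at chr11:82991831-82992080 on the minus strand. Slfn3, the member with the highest signal by its leading probe set, is given as one without a match, at chr11:83191080-83191329 on the plus strand.
Slfn5 promoter: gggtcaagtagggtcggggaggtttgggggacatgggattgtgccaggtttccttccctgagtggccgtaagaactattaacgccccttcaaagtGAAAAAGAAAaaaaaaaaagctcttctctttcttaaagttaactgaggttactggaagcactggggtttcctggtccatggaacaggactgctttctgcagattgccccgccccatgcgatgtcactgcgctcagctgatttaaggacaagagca
Slfn8 promoter: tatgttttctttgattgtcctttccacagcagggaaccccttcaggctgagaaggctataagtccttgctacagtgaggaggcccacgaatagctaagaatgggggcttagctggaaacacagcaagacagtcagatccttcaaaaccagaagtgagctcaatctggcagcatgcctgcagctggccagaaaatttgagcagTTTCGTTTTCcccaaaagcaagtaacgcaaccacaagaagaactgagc
Slfn9 promoter: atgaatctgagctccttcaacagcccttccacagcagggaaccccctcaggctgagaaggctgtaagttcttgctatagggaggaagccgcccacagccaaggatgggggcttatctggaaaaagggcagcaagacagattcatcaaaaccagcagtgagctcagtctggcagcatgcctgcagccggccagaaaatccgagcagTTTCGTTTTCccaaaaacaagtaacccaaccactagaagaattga
Slfn3 promoter: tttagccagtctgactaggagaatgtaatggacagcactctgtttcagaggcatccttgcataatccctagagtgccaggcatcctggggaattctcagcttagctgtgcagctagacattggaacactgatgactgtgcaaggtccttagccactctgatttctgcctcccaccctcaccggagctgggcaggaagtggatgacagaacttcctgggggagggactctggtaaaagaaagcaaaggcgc

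Counted from the start of the gene, the match of Slfn8 began at base -48 in the window printed above and at base -136 from its other RefSeq start, and that of Slfn9 began at base -45, in each case on the strand opposite to the gene and with the same letters, TTTCGTTTTC. The surrounding sequence was alike as well. The 250 bases before the starts of Slfn8 and Slfn9 had 29 words of 12 bases in common, of 239 in Slfn8. The match of Slfn5 was of another kind. It began at base -155, on the strand of the gene, as GAAAAAGAAA at the head of a run of A. With 3 bases in place of 2 between the GAAA blocks of the motif, none of the 7 members had a match. This wider spacing was found in 3.17% of all genes and in 20.8% of the type I interferon response genes with a window. A match of letters is a description of these windows and does not show that a factor binds there.

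Other motifs were searched in the same windows. The gamma-activated site TTCNNNGAA, a motif of the response to interferon-gamma, was found in none of the 7 members and in 9.55% of all genes. The Smad box, bound by the Smad factors that TGFb receptors activate, was searched as the exact word CAGACA. This word was likewise found in none of the 7, against 23.6% of all genes. Shorter or other forms were not searched, so the members are not shown to lack Smad sites. The core bound by the macrophage factor PU.1 was searched as the exact word GAGGAA. This word was found in Slfn9 alone of the members, and in 31.3% of all genes. Shorter or other forms of the core were not searched, so the remaining members are not shown to lack PU.1 sites. With 7 genes, the counts of the gamma-activated, Smad and PU.1 words are close to what the shares over all genes give. Nothing is read from them. No test was made for any motif, since the members were chosen with their results known and the windows of Slfn8 and Slfn9 share sequence.

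In the pooled microglia, Slfn3, Slfn2, Slfn5, Slfn8 and Slfn9 had signals above that of the median gene, and Slfn4 and Slfn1 had signals below it. The leading probe set of Slfn3 (10379650) stood at a median intensity of 1763, above 99.2% of all genes. Slfn2 (10379630), the short member that in the mouse keeps T cells and monocytes quiescent, followed at 252.9, above 91.8% of the genes. Slfn5 (10379615), a long nuclear member, stood at 203.5, above 89.6% of the genes. Slfn2 and Slfn5 were close to each other, with a ratio of 1.24. No spread was used, so whether they differ was not tested.

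The 2 long members encoded side by side were lower. Slfn8 (10389143) stood at 127.5, above 84.0% of the genes, and Slfn9 (10389134) at 59.6, above 71.5%. Slfn8 was thus 2.14-fold above Slfn9 in signal. Slfn4 (10379636), which in mouse macrophages is induced by Toll-like receptor ligands and interferon, had a median intensity of 13.1, above 46.5% of the genes. Slfn1 (10379633), the member first tied to growth arrest of thymocytes, was the lowest at 9.38, above 38.0% of the genes. The median gene stood at 15.8 and the lower and upper quartiles at 6.19 and 73.5. Of the members, 4 therefore lay in the top 25% of the genes and Slfn9 just below it. Slfn4 and Slfn1 lay in the range of the 5 T cell markers, which ran from 3.99 to 13.4. They are therefore not shown to be above the background of the arrays. The folds against Slfn1 given with the processing alternatives are not read as differences in expression.

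**Figure D1:**
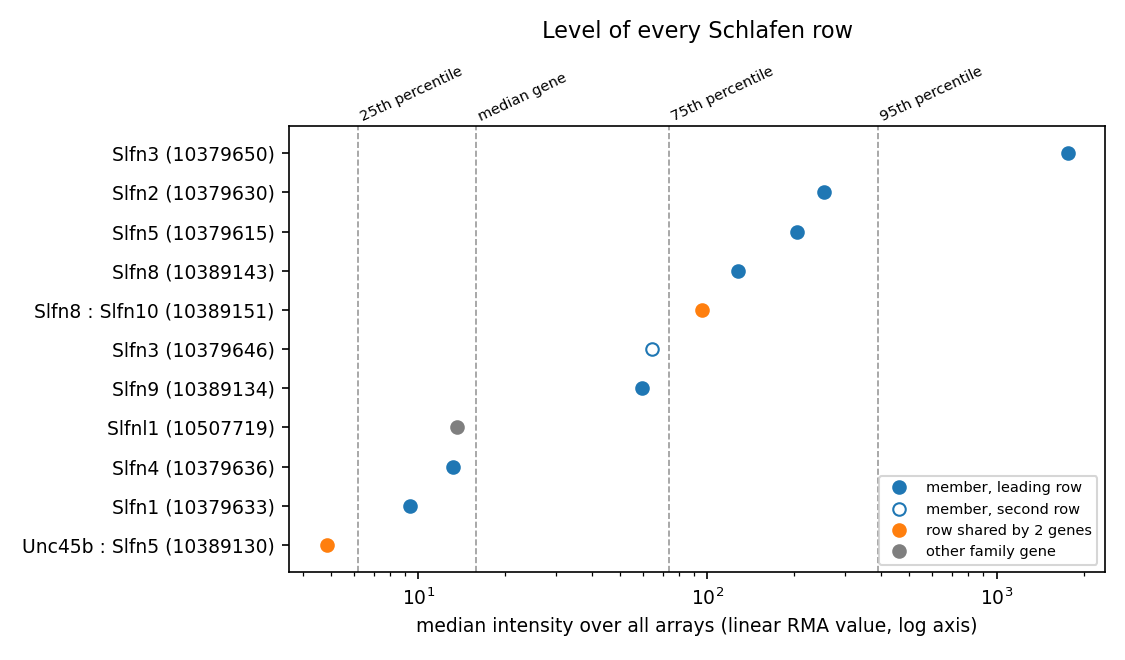
Median intensity over all arrays (linear value on a log axis) of every probe set of a Schlafen gene, with the probe set number. Filled blue points are the leading rows of the 7 members, the open point is the second row of Slfn3, orange points are rows shared by 2 genes, the gray point is Slfnl1, and dashed lines mark percentiles of all genes. The 2 rows of Slfn3 stand at 1763 and 64.4, and Slfn4 and Slfn1 lie left of the median gene.

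The place of Slfn3 at the top rests on 1 probe set. Its second probe set (10379646) had a median intensity of 64.4, above 72.8% of the genes, so the probe sets of this symbol differed by 27.4-fold. Among the 1185 symbols with 2 or more probe sets, the highest row exceeded the second by 1.72-fold in the median, and 39 of them (3.29%) had a ratio at least as large as Slfn3. The probe sets also differ in what they are annotated with. The lower one lists 3 accessions, of which the Ensembl and the RefSeq transcript both named Slfn3 in GENCODE M21. The higher one lists 1 GenBank accession and no transcript that could be looked up. The lower value of Slfn3 would place it between Slfn8 and Slfn9. Which of the probe sets measures the mature transcript was not tested.

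The shared probe sets are no second measure of a member. The row of Slfn8 with Slfn10 had a median intensity of 95.9, and that of Slfn8 alone was 1.33-fold higher. Of the 5 Ensembl accessions of the shared row, 4 were found in GENCODE M21, and of its 3 RefSeq accessions, 2 were. Those found named Slfn8 and the pseudogene Slfn10-ps, the current name of Slfn10. The row of Unc45b with Slfn5 stood at 4.81, above 16.8% of the genes and not shown to be above background, against 203.5 for Slfn5 alone. Unc45b, a chaperone of myosin in muscle, is the neighbour of Slfn5, and its own leading probe set stood at 20.6. Slfnl1, a Schlafen-like gene outside the cluster, had a median intensity of 13.6, close to Slfn4. No signal of Slfn14 was analysed here, and it enters the comparison of transcripts only. For the leading rows of the other 6 members, every Ensembl and RefSeq accession that was listed named that same member in GENCODE M21.

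Short probes cannot tell genes apart where their transcripts are identical, so the transcripts of the family in GENCODE M21 were compared in all their fragments of 25 bases, the usual length of such an array probe. The family fell into 2 blocks with no fragment in common. Slfn8, Slfn9 and Slfn10-ps shared fragments with each other, Slfn1, Slfn2, Slfn3 and Slfn4 shared fragments with each other, and Slfn5 and Slfn14 shared none with any of the 9 genes. In the first block, 24.9% of the 4134 fragments of Slfn8 were also in Slfn9, and 22.9% were in Slfn10-ps. Of the 5963 fragments of Slfn9, 17.2% were in Slfn8 and 17.5% in Slfn10-ps. In the second block, Slfn3 and Slfn4 were the closest pair, with 644 fragments in common, which are 18.9% of those of Slfn3 and 16.2% of those of Slfn4. Slfn2 shared 8.23% of its fragments with Slfn4 and 4.94% with Slfn3. Slfn1 stood farthest from the others of its block, sharing 2.28% with Slfn3 and 1.96% with Slfn4.

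**Figure D2:**
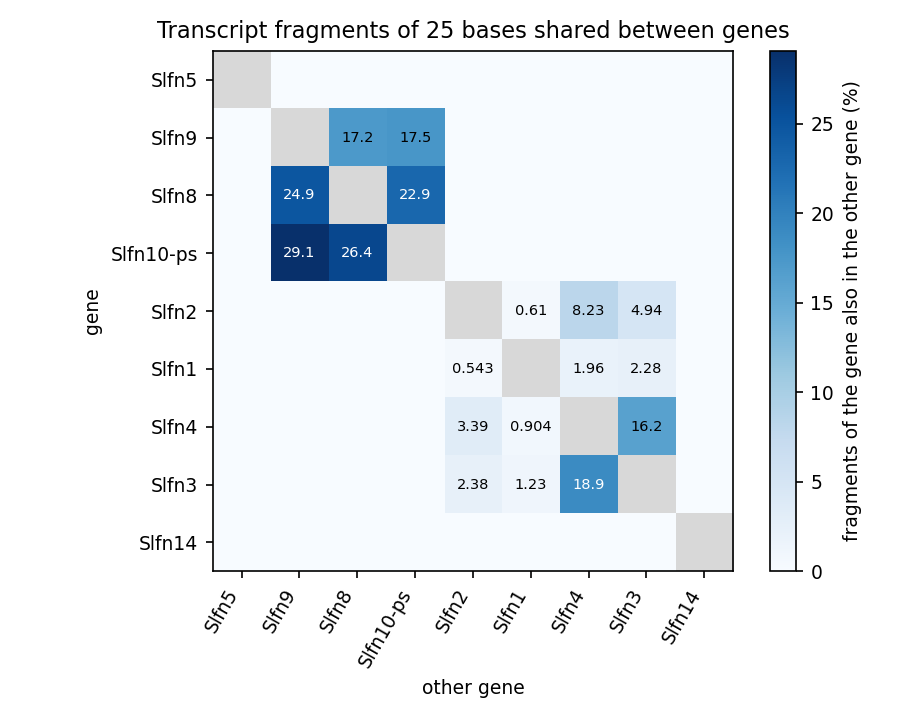
Share of the distinct 25-base fragments of each gene (rows) that are also found in another Schlafen gene (columns), in percent, over all GENCODE M21 transcripts of each gene, in chromosome order. Empty cells are 0. Slfn9, Slfn8 and Slfn10-ps form one block and Slfn2, Slfn1, Slfn4 and Slfn3 the other, with the highest share, 29.1%, between Slfn10-ps and Slfn9.

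Fragments found in no other gene made up 97.4% of Slfn1, 93.8% of Slfn5, 85.7% of Slfn2, 76.2% of Slfn4, 68.8% of Slfn9, 66.5% of Slfn8 and 63.2% of Slfn3. Slfn3 thus had the smallest part of its own among the 7 members. Of its fragments, 445 (13.1%) were found in Gm11427, a pseudogene that lies beyond Slfn3 in the same cluster. Gm11427 also held 429 fragments of Slfn4, or 10.8%. The probe sequences are not used here, so whether the probes of a row fall in shared or in unshared fragments was not tested. The signals of Slfn8 and Slfn9, and of Slfn3 and Slfn4, are for this reason uncertain as measures of the single genes, and those of Slfn5 and Slfn1 are least touched by it. The leading probe set of Slfn3, at 1763, lists no transcript that could be looked up. Whether the shares of the Slfn3 transcripts bear on its signal was not tested.

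The 7 members lie next to each other on chromosome 11, with no other protein-coding gene between them. In chromosome order they are Slfn5, Slfn9, Slfn8, Slfn2, Slfn1, Slfn4 and Slfn3, and Slfn9 and Slfn8 are read from the minus strand and the others from the plus strand. Levels did not follow this order. The lowest members, Slfn1 and Slfn4, lie side by side between Slfn2 and Slfn3, the highest by their leading probe sets. By its lower probe set, Slfn3 would stand below Slfn2, Slfn5 and Slfn8. Both probe sets of Slfn3, at 1763 and 64.4, were above that of Slfn4 at 13.1.

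Of 9 protein-coding genes near the cluster, 5 before it and 4 beyond it, 7 had signals that were analysed, between 4.78 and 518 with a median of 15.6. Ap2b1, a subunit of the clathrin adaptor, was the highest of them at 518, and Rffl, a ubiquitin ligase, followed at 55.6. Unc45b stood at 20.6 and Nle1, a ribosome assembly factor, at 15.6. Gas2l2, Rasl10b and Fndc8 stood at 11.3, 7.67 and 4.78, in the range of the T cell markers and not shown to be above background. Of the 7 Schlafen members 5 were above the median gene, against 3 of these 7 neighbours, a difference that was not tested.

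**Figure D3:**
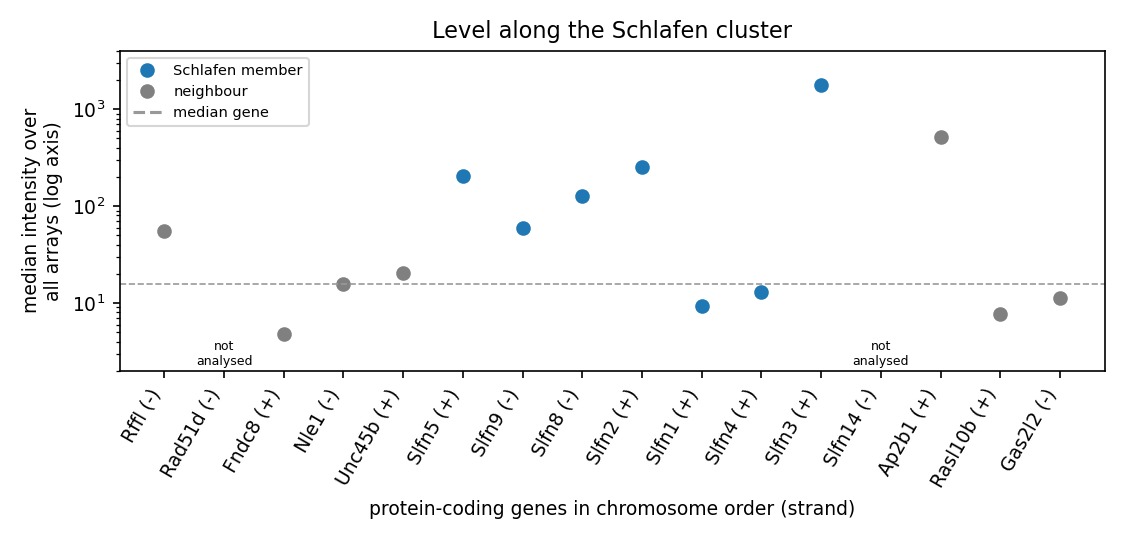
Median intensity over all arrays (log axis) of the 7 Schlafen members (blue) and of protein-coding genes near the cluster, 5 before it and 4 beyond it (gray), in chromosome order with the strand of each gene. The dashed line is the median gene. Slfn1 and Slfn4, at 9.38 and 13.1, lie below it between Slfn2 at 252.9 and Slfn3 at 1763, and Rad51d and Slfn14 were not analysed.

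The members were also set beside genes of the pathway that is known to induce several of them. The 7 Schlafen members had a median of 127.5, and 5 of them (Slfn4 and Slfn1 were the exceptions) were above the median gene. With the lower probe set of Slfn3 the median of the members was 64.4, and the same number were above the median gene. Of 33 measured type I interferon response genes, 32 were above it, with a median of 134.5. Among these were Oasl2, a relative of the oligoadenylate synthetases, at 911.9, Ifit3 at 387.6, and Stat2, which carries the signal of the type I interferon receptor, at 188.3. Isg15, a ubiquitin-like modifier, and Mx2, an antiviral GTPase, stood at 19.6 and 17.3, in the range of the median gene. Ifi44 was the gene below it, at 14.98. Slfn4 and Slfn1 were lower than Ifi44 and are not shown to be above background.

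The receptor genes of the interferons had strong signals and the ligand genes did not. Ifnar1 and Ifnar2, the chains of the type I interferon receptor, stood at 544.5 and 682.4, and Ifngr1 and Ifngr2, the chains of the interferon-gamma receptor, at 519.9 and 1136. The ligand genes Ifnb1, Ifng, Ifna2 and Ifna4 had 6.00, 9.05, 8.29 and 4.83, all below the median gene. Like Slfn1, the lowest member at 9.38, they lay in the range of the T cell markers. They are not shown to be above background, and their order against Slfn1 is not read. Of the whole list of 21 interferon ligand, receptor and signalling genes, 16 were above the median gene, with a median of 163.0.

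The table carries its own annotation of the members. It gives negative regulation of cell proliferation as a process for Slfn1, Slfn2 and Slfn3, cell cycle arrest and the G1/S transition for Slfn1, and cell differentiation for Slfn5, and gives no process for Slfn4, Slfn8 and Slfn9. All 25 measured cell cycle genes were above the median gene in signal, with a median of 66.3. They included the proliferation marker Mki67 at 71.4, Pcna, the sliding clamp of DNA replication, at 1422 and Cdkn1a, the cyclin-dependent kinase inhibitor p21, at 1258. Of 11 measured genes of TGFb feedback and TGFb targets, 10 were above the median gene, with a median of 109.5. Tgfbi, a matrix protein named for its induction by TGFb, was the highest at 622.6. Ltbp1, which binds latent TGFb, was the lowest at 10.5 and is not shown to be above background. The level of the Schlafen genes was not tested against any of these lists.

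The label of the cells was checked on marker genes. All 11 microglia markers were above the median gene, with a median of 819.2, although P2ry12, a purine receptor of resting microglia, had only 40.4. Of the 8 measured markers of border macrophages and monocytes, 5 were above the median gene, with Ms4a7 at 2052, Clec12a at 993.1 and Mrc1 at 155.7, and Ccr2, Cd163 and Lyve1 at 3.23, 5.84 and 10.6. None of the 5 T cell, 5 neutrophil and NK cell and 2 neuron markers was above it. Of other cells, Aldh1l1 among 5 astrocyte markers, Mbp among 7 oligodendrocyte markers, and Col1a1 and Col3a1 among 5 endothelial cell and fibroblast markers were, at 28.6, 56.7, 18.8 and 18.9. Schlafen genes are also expressed in T cells and monocytes, and whether other cells contribute to their signals was not tested.

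**Figure D4:**
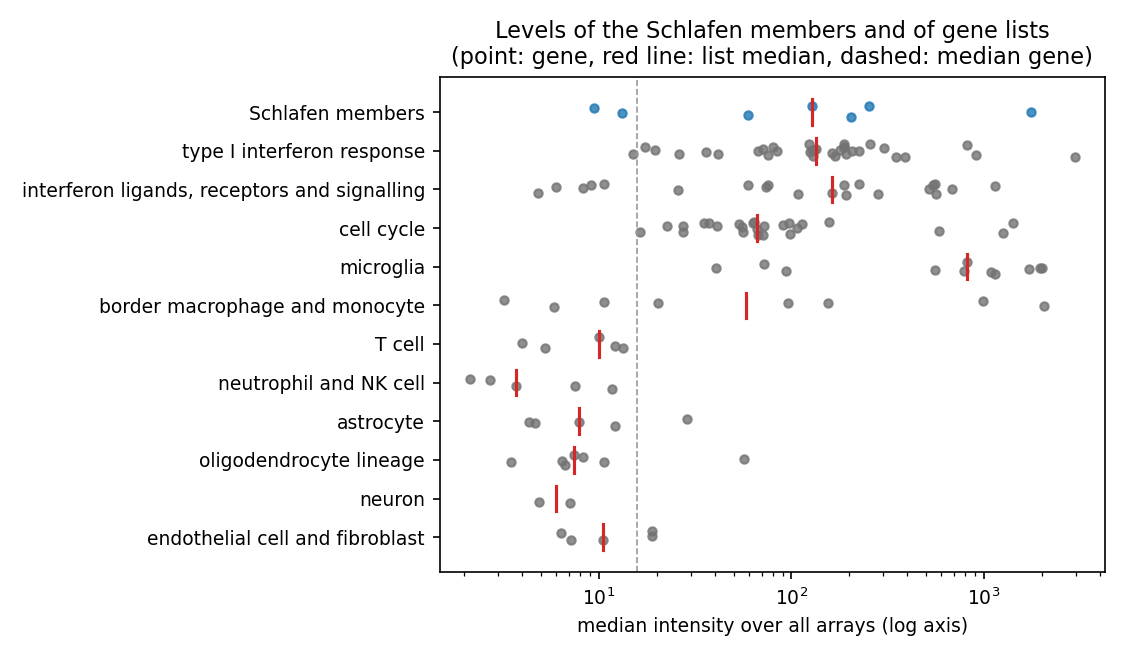
Median intensity over all arrays (log axis) of the 7 Schlafen members (blue) and of the genes of each list (gray), 1 point a gene, with the median of each list as a red line and the median gene as a dashed line. The Schlafen members run from 9.38 to 1763 around a median of 127.5, and the type I interferon response genes from 14.98 to 2952 around 134.5.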

How the data were processed

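RNA (500 ng a sample) was carried through the Affymetrix whole transcript assay, with random priming and biotin end labelling. The submitters' notes name RMA, a method that normalizes arrays and summarizes the probes of each probe set. The RMA version and genome build are not given in the sources used here. The study's methods name an array model only for RNA of sorted microglia, another preparation, so the model of these arrays is not stated. The deposited table had 28361 rows of probe sets. From it, the deposited median intensity over the arrays, a linear value, was read. A further 10 columns hold values per array under names that match no sample label, and 5 columns hold the authors' comparison of the groups by a paired test, as effects, a log2 effect, p-values and FDR. None of these was used, so the planned limma fit, its replicate block, the list counts and the correlations over arrays were not made. The number of arrays limits the precision, and no spread was used.

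Of the rows, 21041 name 1 symbol, 2247 several, 5061 none and 12 a date. Per symbol the row with the highest median intensity led, which gave 18976 genes. Members and lists were chosen with earlier results of these data known. The text names every Schlafen row, the cluster's neighbours and, from the lists, genes chosen after their values were seen. In the type I interferon list 2 genes were matched by an older symbol of the RefSeq gene table of GRCm38.p6. Some genes of the lists and of the neighbourhood are not reported here. Promoters came from RefSeq and transcripts and strands from GENCODE M21. Fragment and motif counts were tested on simulated sequences. Python 3.11.15, numpy 2.4.6 and matplotlib 3.10.9 were used. Alternatives were the choice of row, the background of genes or all rows, the fragment length and the spacing of the motif.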

Additional observations from a re-analysis of the deposited data

How the results depend on the processing

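All alternatives were chosen after seeing the data, since the planned ones needed values per array, which were not used. No paired analysis was possible because the columns of values per array match no sample label. With the lowest row per symbol, which changes Slfn3 alone, the median level of the members was 64.4 in place of 127.5, 3 members in place of 4 were in the top 25% of genes, and the ratio of the highest to the lowest signal was 27.0 in place of 188, both against Slfn1, which is not shown to be above background. The median was 95.9 over every row with a member symbol alone and 80.1 with the shared rows included. Against all rows of the table, 6 members in place of 5 were above the median, since Slfn4 then stood above 50.9% of the rows. With 3 bases between the GAAA blocks of the interferon motif, 0 of 7 members had a match, in place of 3. The share over all genes was 3.17% in place of 3.99%. With fragments of 20 bases, the share of Slfn8 found in other Schlafen genes was 39.9% in place of 33.1%, and that of Slfn5 was 0.048% in place of 0.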
